A study of Mus musculus with 6 samples.

Results

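The guanylate-binding proteins (GBPs) Gbp2 to Gbp9 were followed in macrophages without the fatty-acid carrier E-FABP. The family was chosen by gene symbol, as every probe set that the array's annotation gives to any of these 8 genes. Of the 8 genes, 5 had a probe set of their own (Gbp2, Gbp3, Gbp6, Gbp7 and Gbp8), out of 18193 genes on the arrays. These 5 genes were covered by 8 probe sets, and 1 more probe set was assigned to Gbp8 and Gbp4 together, out of 45037 probe sets tested. Gbp5 and Gbp9, and Gbp4 by itself, were not analysed here.

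The tested cells were E-FABP knockout macrophages (3 arrays), set against wild-type macrophages (3 arrays); the labels give C57BL/6 as the strain of both, and mice of 6 to 8 weeks as the donors. Bone marrow was grown for 7 days with the growth factor GM-CSF at 20 ng/ml, and all 6 cultures were then exposed to an insert that held E0771, a tumour line of the mouse mammary gland, over 18 h of shared medium. There was no culture without tumour cells among the 6 samples, so every value below is that of a tumour-exposed cell. The labels speak of biological replicates but name no mice, pooled or single, behind each array, and p-values therefore measure the spread between these samples. The type of knockout and the part of the gene removed are not given in the sources used here.

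GBPs are large GTPases that macrophages make in quantity when interferon gamma or the type I interferons reach them. Interferon receptors act through JAK kinases on STAT factors and interferon regulatory factors, which bind the ISRE and GAS elements in the promoters of their targets. The GBP proteins assemble on the vacuoles of intracellular parasites and on bacteria, recruit ubiquitin and autophagy proteins there, and help release bacterial DNA and lipopolysaccharide to the inflammasomes. In the mouse the family lies in a cluster on chromosome 3 and another on chromosome 5.

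The array check of genotype came first. Fabp5, which encodes E-FABP, read 8.13, 8.31 and 8.39 (log2 intensity) on the knockout arrays, against 14.47, 14.41 and 14.45 on the wild-type arrays, in its brighter probe set. All 3 knockout arrays thus lay far below all 3 wild-type arrays. Macrophage genes were bright, with Adgre1 (the F4/80 antigen) at 11.51 in knockout and 11.59 in wild type, Csf1r at 13.87 and 13.89 and Lyz2 at 14.85 and 14.84, where the median of all values on the arrays was 5.63. Genes listed for other myeloid cells were bright as well, among them H2-Aa (13.67 and 13.57) and Fscn1 (13.15 and 12.60) for dendritic cells and Mmp8 (13.10 and 12.95) for neutrophils, so these levels do not separate macrophages from those cells. Whole cultures were measured, so fewer cells of a type and less RNA per cell cannot be told apart. Array medians ranged from 5.60 to 5.64, and the number of arrays limits the precision of every value.

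Promoter windows of members that fell are shown because these genes moved together. RefSeq (GRCm38.p6) gave windows of 300 bases, from 250 before to 50 after the start site, for 4 of the 8 genes; Gbp4, Gbp6, Gbp8 and Gbp9 had no window in the table used. Each window lies on the + strand of chromosome 3 and is printed 5′ to 3′, with capitals for the ISRE core GAAANNGAA or the GAS core TTCNNNGAA, both searched on both strands. Neighbouring capitals in Gbp3 are a pair of ISRE cores that overlap.
Gbp2, chr3:142620413-142620712: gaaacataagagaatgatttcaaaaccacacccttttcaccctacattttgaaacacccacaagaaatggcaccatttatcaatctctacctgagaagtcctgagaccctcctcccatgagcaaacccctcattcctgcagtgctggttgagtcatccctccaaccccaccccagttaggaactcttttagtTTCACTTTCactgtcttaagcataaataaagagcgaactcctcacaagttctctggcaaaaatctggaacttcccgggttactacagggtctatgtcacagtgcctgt
Gbp3, chr3:142559794-142560093: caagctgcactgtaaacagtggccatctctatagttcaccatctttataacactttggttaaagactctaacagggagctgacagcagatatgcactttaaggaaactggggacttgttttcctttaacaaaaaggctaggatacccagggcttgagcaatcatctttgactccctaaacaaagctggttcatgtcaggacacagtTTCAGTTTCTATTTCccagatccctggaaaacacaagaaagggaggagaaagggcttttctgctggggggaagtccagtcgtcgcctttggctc
Gbp7, chr3:142530086-142530385: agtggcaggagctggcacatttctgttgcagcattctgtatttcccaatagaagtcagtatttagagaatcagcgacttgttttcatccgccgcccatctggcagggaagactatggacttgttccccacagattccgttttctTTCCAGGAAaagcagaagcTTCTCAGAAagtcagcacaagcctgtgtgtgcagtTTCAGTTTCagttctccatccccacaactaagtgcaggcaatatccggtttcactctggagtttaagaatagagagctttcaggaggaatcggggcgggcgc

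All 3 printed windows held an ISRE core close to the start of transcription, read in the opposite direction to the gene. Its first printed base lay 58 bases before the start site in Gbp2 (TTCACTTTC), 52 bases before it in Gbp7 (TTCAGTTTC), and 44 and 38 bases before it in Gbp3 (TTCAGTTTC and TTCTATTTC). A GAS core stood 106 and 87 bases before the start of Gbp7 (TTCCAGGAA and TTCTCAGAA), and these letters were not in the windows of Gbp2 and Gbp3. A second window of Gbp3, from another start site, held neither. The window of Gbp5, whose transcript was not analysed here, held 1 ISRE core and 2 GAS cores. The relative Gbp2b, whose difference did not pass, also had an ISRE core (TTCACTTTC), 136 bases before its start. Among all 32841 promoter windows of this length, 8.56% held the ISRE core, 8.30% the GAS core and 1.07% both, and a match of letters is not a measured binding site.

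The GBP transcripts were lower in the knockout macrophages, to between 31.9% and 49.3% of the wild-type intensity in the 7 probe sets that passed the test. These 7 were all the probe sets of Gbp2, Gbp3, Gbp6 and Gbp7. Counted by gene, with the brighter probe set standing for its gene, 4 of the 5 genes fell, 0 rose and Gbp8 did not pass. The test was limma's moderated test, with Benjamini-Hochberg adjusted p-values across the 45037 probe sets, and an adjusted p under 0.05 counted as passing. In the background, 1.70% of all probe sets and 2.05% of all genes were called lower in knockout, while 2.85% of genes were called higher; that is 373 genes lower and 519 higher, against 403 lower and 356 higher after quantile normalization. The median difference of the 5 genes was -1.13 on the log2 scale, against 0.01 for all 18193 genes. Gbp6, Gbp3, Gbp7, Gbp2 and Gbp8 stood at places 36, 39, 67, 90 and 214 when all genes were ordered from the strongest fall upward.

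**Figure D1:**
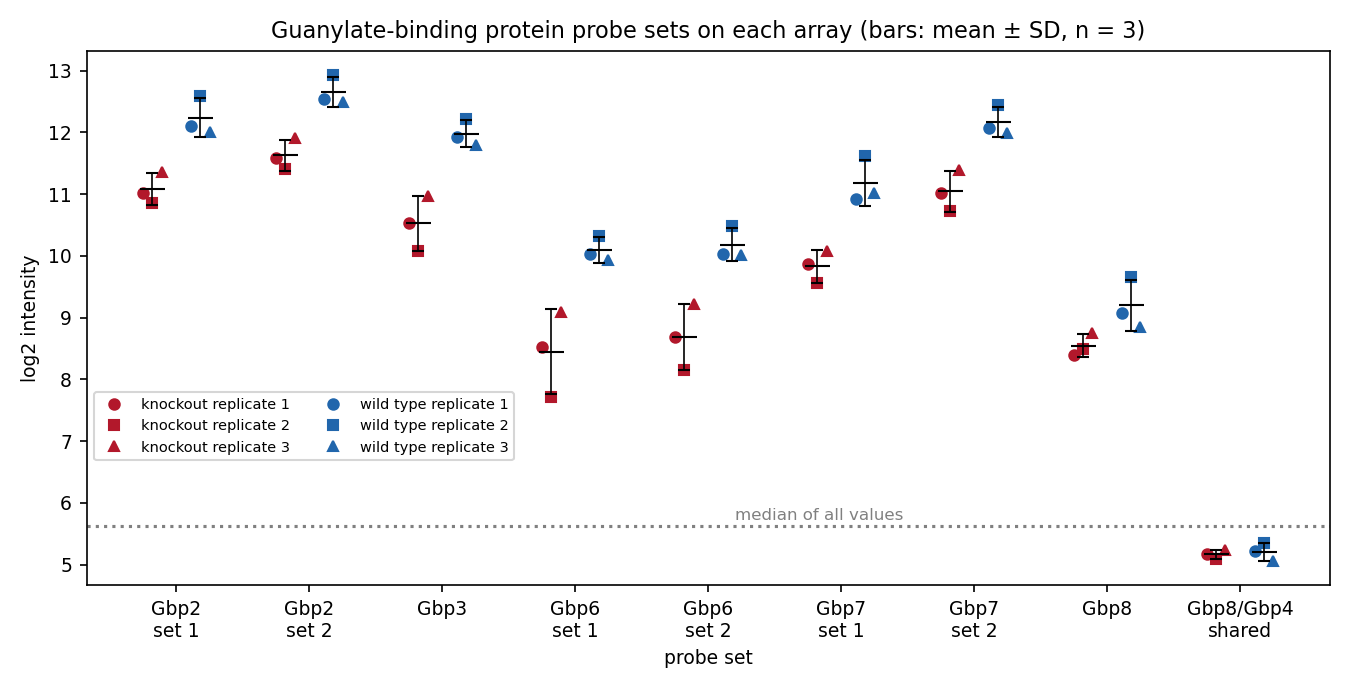
Log2 intensity (vertical axis) of each GBP probe set on each array, knockout (red) left of wild type (blue), with the marker shape giving the replicate and the bars the mean ± SD of 3 arrays. In the 7 probe sets of Gbp2, Gbp3, Gbp6 and Gbp7 every red point lies below every blue one, while the probe set shared by Gbp8 and Gbp4 lies below the median of all values in both genotypes.

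Gbp2, which carries a lipid anchor that ties it to membranes and is needed in mice for control of the parasite Toxoplasma, fell in both of its probe sets. Probe set 1418240_at read 11.02, 10.85 and 11.36 (log2 intensity) in knockout replicates 1, 2 and 3, against 12.11, 12.60 and 12.00 in wild-type replicates 1, 2 and 3. The groups did not overlap, and the highest knockout array stayed 0.64 below the lowest wild-type array. The difference was -1.16 (SE 0.17, 95% interval -1.54 to -0.78; limma adjusted p = 0.0177). The brighter set 1435906_x_at read 11.63 ± 0.25 in knockout and 12.65 ± 0.24 in wild type (SD, n = 3 each), a difference of -1.02 (SE 0.15; limma adjusted p = 0.0177).

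Gbp3, a neighbour of Gbp2 in the chromosome 3 cluster, fell as well. Its only probe set, 1418392_a_at, read 10.53, 10.08 and 10.96 in the knockout arrays, against 11.92, 12.22 and 11.79 in the wild-type arrays. Knockout replicate 3 was the nearest to wild type, still 0.83 below the lowest wild-type value. Mean values were 10.53 ± 0.44 in knockout and 11.98 ± 0.22 in wild type (SD, n = 3 each). The difference of -1.45 (SE 0.20, 95% interval -1.90 to -1.003) corresponds to 36.6% of the wild-type intensity (limma adjusted p = 0.0163).

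Gbp7 has been tied in mouse macrophages to assembly of the NADPH oxidase that makes antimicrobial oxygen radicals. Set 1434380_at read 11.02, 10.73 and 11.39 in knockout, against 12.08, 12.45 and 11.99 in wild type. No knockout array reached the lowest wild-type array, and the difference was -1.13 (SE 0.17; limma adjusted p = 0.0194). Set 1425156_at read 9.86, 9.55 and 10.08 in knockout, against 10.92, 11.61 and 11.02 in wild type, a difference of -1.35 (SE 0.19, 95% interval -1.77 to -0.93; limma adjusted p = 0.0164).

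Gbp6, of the chromosome 5 cluster and one of the GBPs whose knockdown weakened killing of bacteria in mouse macrophages, had the most negative differences of the family by value. Set 1438676_at read 8.53, 7.72 and 9.10 in the knockout arrays, against 10.03, 10.33 and 9.93 in the wild-type arrays. The knockout values were spread over 1.38 log2 units and the wild-type values over 0.40, yet the groups stood 0.83 apart. The difference was -1.65 (SE 0.28, 95% interval -2.29 to -1.01), or 31.9% of the wild-type intensity (limma adjusted p = 0.0234). Set 1447927_at read 8.69, 8.15 and 9.22 in knockout, against 10.04, 10.49 and 10.02 in wild type, a difference of -1.50 (SE 0.24; limma adjusted p = 0.0207).

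Gbp8, also on chromosome 5, was the member whose difference did not pass. Set 1418776_at read 8.40, 8.49 and 8.75 in knockout, against 9.08, 9.66 and 8.85 in wild type. The groups did not overlap but came within 0.10 of each other, at knockout replicate 3 and wild-type replicate 3. The difference was -0.65 (SE 0.19, 95% interval -1.07 to -0.23; limma adjusted p = 0.0897). The probe set shared by Gbp8 and Gbp4, 1421104_at, whose listed accession is a Gbp4 transcript, read 5.18, 5.10 and 5.24 in knockout and 5.22, 5.35 and 5.06 in wild type. Its groups overlapped and all 6 values lay below the median of all values, with a difference of -0.04 (95% interval -0.24 to 0.15; limma adjusted p = 0.842), so a change of Gbp4 was not detectable at this brightness.

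The groups stood apart, with every knockout array under every wild-type array, in 8 of the 9 probe sets and 5 of the 5 genes, where 11.1% of all probe sets and 11.2% of all genes did so. Calls depended on single arrays. Without knockout replicate 1, 0 of the 7 probe sets and 0 of the 4 genes passed (limma adjusted p of 0.0718 to 0.0840), and without wild-type replicate 2, 1 of the 7 and 0 of the 4 passed (adjusted p of 0.0410 to 0.0975). The knockout mean remained the lower one for all 8 single-gene probe sets in each of these 6 fits with an array left out, over which Gbp8 ranged from -0.82 to -0.42. With eBayes' trend and robust settings 2 of the 7 probe sets and 1 gene passed, and with values floored at the 20th percentile 0 passed. No GBP value lay below that floor (4.07), so the GBP differences stayed the same under it. Their standard errors rose, as from 0.17 to 0.22 for Gbp2 set 1418240_at. The plot of adjusted p by setting shows how close to 0.05 the reduced fits lie.

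**Figure D2:**
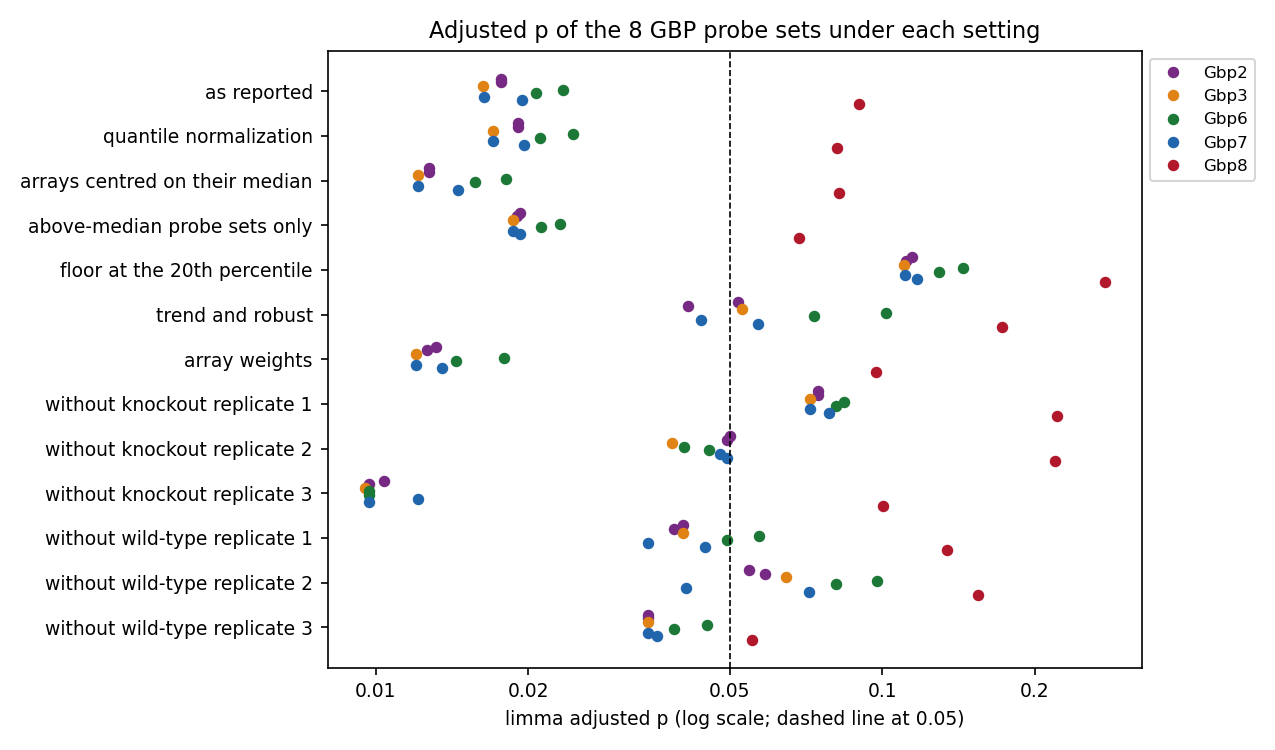
Limma adjusted p (horizontal axis, log scale, dashed line at 0.05) of the 8 single-gene GBP probe sets by setting (vertical axis), coloured by gene. A fit with the replicate number as a block is not drawn. The points of Gbp2, Gbp3, Gbp6 and Gbp7 cross to the right of the line without knockout replicate 1 and with the floor, and Gbp8 (red) lies to the right in every setting drawn.

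The members ran in parallel across the arrays, in an order that was not particular to them. In the 9 probe sets, knockout replicate 3 was the highest knockout array in 9 and knockout replicate 2 the lowest in 8. Wild-type replicate 2 was the highest wild-type array in 9 and wild-type replicate 3 the lowest in 8. Gbp2, Gbp6 and Gbp7 enter these counts with more than 1 set, and the share over all probe sets was not counted. The immunity-related GTPase genes Iigp1, Igtp, Irgm1, Irgm2 and Ifi47 had the same highest and lowest knockout arrays and the same highest wild-type array. Irgc1 did not. As the median deviation of the 5 genes from their own means, knockout replicates 1, 2 and 3 lay at -0.59, -0.88 and -0.22, and wild-type replicates 1, 2 and 3 at 0.47, 0.84 and 0.38. The knockout arrays thus differed among themselves, with replicate 2 furthest from wild type and replicate 3 nearest. Gbp8 departed from the others: its lowest knockout array was replicate 1, and wild-type replicate 3 lay at -0.02, next to its knockout values.

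**Figure D3:**
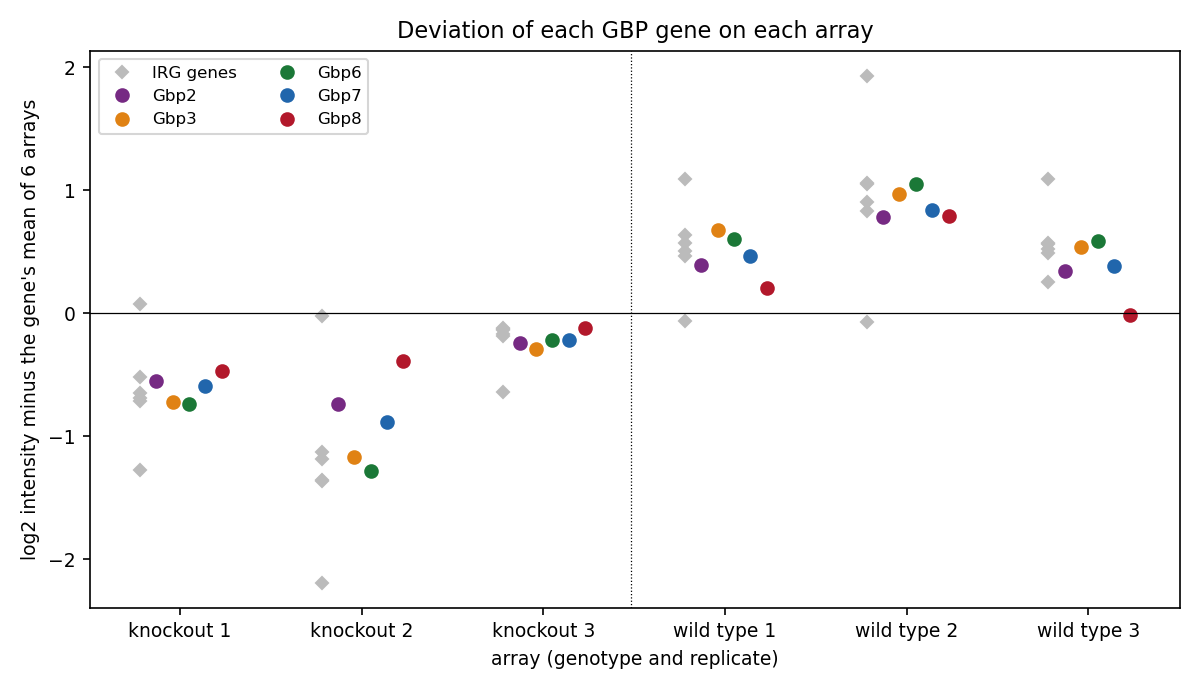
Deviation in log2 intensity from the gene's mean over 6 arrays (vertical axis) for the 5 GBP genes (coloured circles) and 6 IRG genes (grey diamonds) on each array, knockout left of wild type. Every GBP gene lies below 0 on the 3 knockout arrays, furthest on replicate 2 for all but Gbp8, and on wild-type replicate 3 Gbp8 sits at -0.02.

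The size of the fall was compared between members through the log2 ratio of 2 genes on each array, which gives 10 pairs. The difference of Gbp6 minus that of Gbp8 was -0.85 (SE 0.26), that of Gbp3 minus that of Gbp8 was -0.80 (SE 0.22), and that of Gbp2 minus that of Gbp7 was 0.11 (SE 0.05). Gbp3 and Gbp6, on different chromosomes, were 0.05 apart (SE 0.07; exact permutation test, two-sided p = 0.6). In the other 9 pairs the exact permutation p was 0.1, the smallest that 3 arrays against 3 can give, and the adjusted p over the 10 pairs was 0.111; at this number of arrays no pair could pass 0.05, and the test cannot show that the members differ or that they do not. The probe sets of a single gene differed by 0.14 (Gbp2), 0.15 (Gbp6) and 0.23 (Gbp7), which limits how far such gaps can be read. Whether the probes of a GBP also bind transcripts of its close relatives was not tested.

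The GBP genes on chromosome 3 share that chromosome with Fabp5, and the RefSeq table lists 2145 genes between Fabp5 and Gbp7, 2146 up to Gbp3 and 2149 up to Gbp2. Gbp2b, formerly called Gbp1, lies between Gbp3 and Gbp2 in the table's order. It read 5.79, 5.99 and 5.84 in knockout, against 5.61, 6.60 and 5.88 in wild type. These groups overlapped, wild-type replicate 2 alone stood out, and the difference was -0.15 (SE 0.21, 95% interval -0.63 to 0.32; limma adjusted p = 0.744). Gbp10 and Gbp11 were not analysed here.

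The immunity-related GTPases (IRGs), the smaller interferon-inducible GTPases that act with GBPs on parasite vacuoles, fell alongside. A list of 12 IRGs and very large GTPases had 6 measured genes, all of them IRGs. Of these 5 fell, 0 rose and Irgc1 did not pass, and the median difference was -1.37. Over all genes 2.05% were called lower and 2.85% higher, the shares to set beside this and each later list count. Iigp1, an effector that damages the vacuole membrane, read 7.72, 6.80 and 8.35 in knockout, against 10.09, 10.92 and 10.08 in wild type (difference -2.74, SE 0.36; limma adjusted p = 0.0158). Igtp (-1.50, SE 0.25), Irgm2 (-1.27, SE 0.22) and Irgm1 (-1.21, SE 0.23), which hold effector GTPases away from the cell's own membranes, and Ifi47 (-1.46, SE 0.27) also fell (limma adjusted p of 0.0226 to 0.0278). Irgc1, the testis form that interferon does not induce, read 6.87 ± 0.13 in knockout and 6.95 ± 0.19 in wild type (SD, n = 3 each; limma adjusted p = 0.738). The count of 5 dropped to 0 when either knockout replicate 1 or wild-type replicate 2 was left out, and to 1 when wild-type replicate 1 was. It was also 0 with values floored at the 20th percentile (adjusted p of 0.109 to 0.155) and with trend and robust settings (0.0603 to 0.121).

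**Figure D4:**
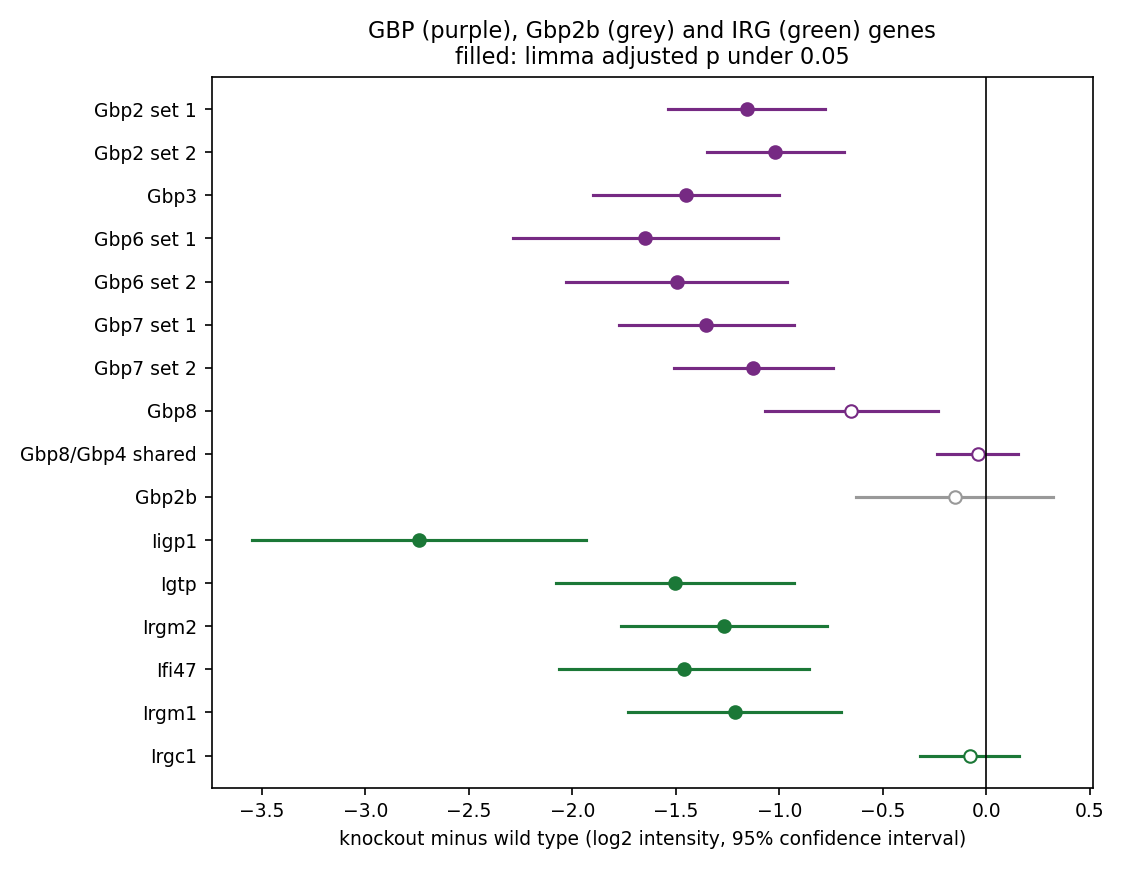
Log2 difference, knockout minus wild type (horizontal axis), with its 95% confidence interval for the GBP probe sets (purple), Gbp2b (grey) and the IRG genes (green), filled where the limma adjusted p is under 0.05. The filled GBP points lie between -1.65 and -1.02, and Gbp8, the probe set shared with Gbp4, Gbp2b and Irgc1 are open.

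The ligands that induce GBPs were measured on the same arrays. Ifng, which encodes interferon gamma, read 3.13, 3.05 and 3.18 in knockout, against 3.37, 3.26 and 3.28 in wild type, all far under the median of all values (difference -0.18, SE 0.07; limma adjusted p = 0.175). Ifnb1, which encodes interferon beta, read 5.43, 5.35 and 5.62 in knockout, against 6.72, 7.35 and 6.62 in wild type, and it fell (limma adjusted p = 0.0136). Wild-type replicate 2, the highest wild-type array for every GBP probe set, was also the highest for Ifnb1. It was likewise the highest wild-type array in the mean of the macrophage, T and NK cell, B cell and tumour epithelial markers. The same held for the IRG list and for the lists of ligands and receptors, signalling, inflammasome and vacuole targeting. In the neutrophil, dendritic cell, fibroblast and prenylation lists wild-type replicate 2 was not the highest. A link between Ifnb1 and the GBP values was not tested. Of 8 ligand and receptor genes 2 fell and 0 rose, with a median of -0.26. The other that fell was Ifnar1, a chain of the type I interferon receptor (-0.41, SE 0.08), while Ifnar2, the other chain, differed by -0.28 (limma adjusted p = 0.0535). Ifngr1, the ligand-binding chain of the interferon gamma receptor, was 10.39 ± 0.05 in knockout and 10.11 ± 0.05 in wild type (SD, n = 3 each), a difference of 0.28 that did not pass (limma adjusted p = 0.0526) but passed after quantile normalization, with array weights, with trend and robust settings and among above-median probe sets only. The count of 2 dropped to 0 with the floor and when knockout replicate 1 was left out, to 1 when knockout replicate 2 or any wild-type array was, and rose to 4 with array weights.

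Downstream of the receptors, 6 of 17 signalling and transcription genes fell, 0 rose and 11 did not pass, with a median of -0.25. They included Stat2 (-1.27, SE 0.17), a subunit of the factor that binds the ISRE, and Irf1 (-0.71, SE 0.11), a transcription factor needed for full GBP induction by interferon gamma in the mouse. The feedback inhibitors Socs1 (-0.69, SE 0.10) and Usp18 (-1.26, SE 0.19) fell too, with limma adjusted p of 0.0158 to 0.0212 for these 4. The count of 6 dropped to 0 with the floor and when either knockout replicate 1 or wild-type replicate 2 was left out.

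Among partners of the GBPs in cell-death signalling, 3 of 13 fell, 0 rose and 10 did not pass, with a median of -0.22. Casp4, the mouse caspase-11 that senses lipopolysaccharide released with the help of GBPs, read 9.53 ± 0.31 in knockout and 10.54 ± 0.17 in wild type (SD, n = 3 each; difference -1.01, SE 0.15, limma adjusted p = 0.0177). Casp1, which matures interleukin-1 and interleukin-18, fell (-0.57, SE 0.09), as did its substrate Il18 (-0.89, SE 0.20), with limma adjusted p of 0.0205 and 0.0431. The pore-forming protein gene Gsdmd differed by -0.31 (SE 0.07; limma adjusted p = 0.0538). Aim2, the DNA sensor that GBPs supply with bacterial DNA, lies outside the rule for named genes and was chosen after its values were seen; it read 6.53 ± 0.14 in knockout and 6.58 ± 0.11 in wild type (SD, n = 3 each; limma adjusted p = 0.837). Leaving out either knockout replicate 1 or wild-type replicate 2 took the count of 3 to 0, as did the floor, and leaving out knockout replicate 2 took it to 1.

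In the list for vacuole targeting and autophagy conjugation 4 of 18 genes fell, 0 rose and 14 did not pass, with a median of -0.05. The 4 were the ubiquitin ligases Rnf213 (-1.002, SE 0.17) and Trim21 (-0.95, SE 0.17), the conjugating enzyme Ube2l6 (-0.89, SE 0.20) and Lgals8 (-0.44, SE 0.08), a galectin that marks broken vacuoles, with limma adjusted p of 0.0231 to 0.0440. A dimmer probe set of Rnf213 differed by -0.24 and did not pass (limma adjusted p = 0.134). Leaving out any one of knockout replicate 1, wild-type replicate 1 and wild-type replicate 2 took the count of 4 to 0, as did the floor, leaving out knockout replicate 2 took it to 1, and leaving out wild-type replicate 3 took it to 2. Of 9 genes for prenylation, the step that puts lipid anchors on some GBPs, 0 were called in either direction by limma, and 0 had an unadjusted p under 0.05. The smallest p-values there belonged to the CaaX proteases Zmpste24 (0.13, SE 0.06) and Rce1 (0.14, SE 0.08), with limma adjusted p of 0.294 and 0.377, followed by Chm (0.08, SE 0.07) and the farnesyltransferase subunit Fntb (0.08, SE 0.07).

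**Figure D5:**
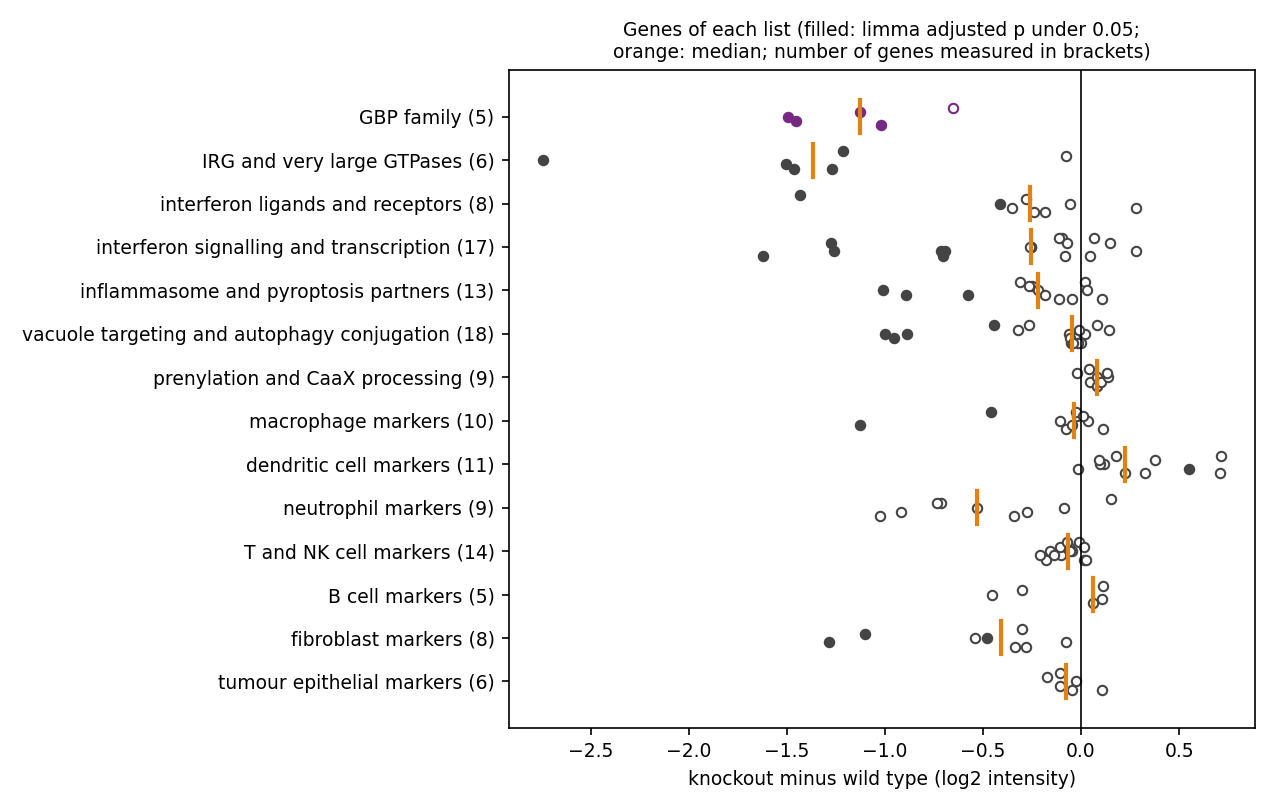
Log2 difference, knockout minus wild type (horizontal axis), for each gene of the GBP family (purple), of the related lists and of the marker lists (black), filled where the limma adjusted p is under 0.05, with the median in orange. The GBP and IRG medians lie at -1.13 and -1.37, while the prenylation median is 0.08.

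Markers of other cells moved on the same arrays. Of 9 neutrophil markers 0 passed limma's test, and 5 passed when knockout replicate 3 was left out. With an unadjusted limma p under 0.05 there were 7 lower in knockout and 1 higher. The share of all genes at that unadjusted p was not counted, here or for the dendritic cell list below. Their mean level ranged from 8.80 to 9.37 (log2 intensity) on knockout arrays and from 9.48 to 9.76 on wild-type arrays, with Ngp and Camp at 10.65 and 9.37 in knockout and 11.57 and 10.40 in wild type. Knockout replicate 2 was the lowest knockout array in the neutrophil list, as in 8 of the 9 GBP probe sets. Among wild-type arrays replicate 2 was the lowest and replicate 3 the highest in the neutrophil list, the reverse of the GBP order, and the part of these cells in the GBP result was not tested. Of 8 fibroblast markers 3 fell, with mean levels of 4.94 to 5.07 in knockout and 5.51 to 5.65 in wild type. Those that fell were Col1a2 at 5.51 in knockout and 6.80 in wild type, Dcn at 5.65 and 6.75, and Col3a1 at 3.79 and 4.27 (limma adjusted p of 0.00401 to 0.0219), while Col1a1, at 4.80 in knockout and 5.08 in wild type, did not pass. Col3a1 in knockout lay under the 20th percentile of all values (4.07). Dimmer probe sets of Col3a1 (0.02; limma adjusted p = 0.930) and Dcn (-0.08; 0.605) did not pass. Of Col1a2, 1 dimmer set passed (-0.92; limma adjusted p = 0.00878) and another did not (-0.33; 0.0600). Of 11 dendritic cell markers 1, Fscn1, rose, at 13.15 in knockout and 12.60 in wild type. The mean level of the 11 markers ranged from 9.45 to 9.83 on knockout arrays and from 9.24 to 9.39 on wild-type arrays. The knockout mean was the higher in 10 of the 11, with a median difference of 0.22, against 0.01 for all genes. At an unadjusted limma p under 0.05 there were 5 higher and 0 lower. Of Fscn1, 1 dimmer set passed (0.44, limma adjusted p = 0.0367), while the others (0.15 and 0.27) had limma adjusted p of 0.353 and 0.152. A dimmer set of Dpp4 passed (1.08, limma adjusted p = 0.0336), while the set standing for Dpp4 (0.71, limma adjusted p = 0.0826) and its remaining sets did not. Of 10 macrophage markers 2 fell, Fcgr1 at 10.93 in knockout and 12.06 in wild type and Mertk at 8.49 and 8.96. The mean level of the 10 markers ranged from 12.07 to 12.22 on knockout arrays and from 12.30 to 12.35 on wild-type arrays. The fibroblast, dendritic cell and macrophage counts of called genes changed to 1, 0 and 0 when either knockout replicate 1 or wild-type replicate 2 was left out. The dendritic count was also 0 when knockout replicate 2 or wild-type replicate 1 was left out and 3 when replicate 3 of either genotype was, the macrophage count was 1 when knockout replicate 2 was left out and 0 when wild-type replicate 1 was, and the fibroblast count was 2 when knockout replicate 2 or wild-type replicate 1 was. T and NK cells, which make interferon gamma, had 0 of 14 markers called and 10 of 14 below the median of all values, with mean levels of 5.02 to 5.07 in knockout and 5.09 to 5.18 in wild type. B cell markers (0 of 5 called) and tumour epithelial markers (0 of 6 called) lay at 5.17 to 5.22 and 5.39 to 5.49 in knockout, and at 5.23 to 5.35 and 5.48 to 5.53 in wild type.

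The genes whose 6 values followed the median of the 5 GBP genes most closely were taken among 11411 genes with a group mean above the median of all values. Likeness was the mean absolute gap, over the 6 arrays, between a gene's deviation from its own mean and the median deviation of the 5 GBP genes. The nearest was Oas3, a synthetase of the RNA-degrading 2-5A pathway, with a gap of 0.03 log2 units. It read 8.43, 8.09 and 8.82 in knockout, against 9.42, 9.85 and 9.44 in wild type. Ifih1, the RNA sensor MDA5, followed at 0.05. Daxx, a histone chaperone, stood at 0.06, Tpst1, a sulfotransferase of secreted proteins, at 0.06 and Nlrc5, an activator of MHC class I genes, at 0.07. Within the family the gap was 0.0005 for Gbp7, 0.06 for Gbp2, 0.16 for Gbp3, 0.18 for Gbp6 and 0.24 for Gbp8. The median was that of Gbp7 on every array but knockout replicate 3, so the ranking is close to one of likeness to Gbp7.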

How the data were processed

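Total RNA of 6 cultures was hybridised to Affymetrix 3' expression arrays, per the labels' protocols. The deposited log2 values, 1 per probe set and array, were made by the authors; RMA, GCRMA 2.30.0, affy 1.36.1 and limma 3.14.4 are named in the submitters' processing notes, and which of them gave the values is not stated there. These methods bring arrays to alike distributions and summarise on the log2 scale, which hides a shift of most genes and compresses dim probe sets. That they are log2 was judged from their spread and top value, and detection calls were not used here. After 64 control probe sets were left out, 45037 entered 1 unfiltered model of genotype (limma 3.58.1 under R 4.3.3, functions lmFit, then eBayes). Standard errors are limma's moderated ones, with 5.04 prior degrees of freedom. Symbols came from the platform annotation, updated through RefSeq; 34945 probe sets had 1 gene, 932 several and 9160 none. The probe set with the highest mean stood for its gene.

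The members, gene lists and tests were chosen with earlier results of these data known. By rule the text names every member, Gbp2b and each measured IRG gene, up to 4 genes per other pathway list by smallest p, Ifng, Ifnb1, Fabp5 and the 5 genes most alike. The rule does not cover marker genes or Aim2, and those named were chosen after their values were seen. Other GTPases listed but without a probe set of their own were not analysed here. The fit was checked on simulated arrays. Alternatives were other normalizations, filters, floors, eBayes settings, array weights, a replicate block, other rules for a gene's probe set, and each array left out. No 2 arrays held the same values. Plots used Python 3.11.15 and matplotlib 3.10.9.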

Additional observations from a re-analysis of the deposited data

How the results depend on the processing

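All 8 single-gene GBP probe sets stayed lower in knockout in each of 13 alternatives, and 0 of the 32 called features named in the text changed direction. Counts of lower genes fell to 0 with values floored at the 20th percentile, for the GBP probe sets (7 as reported), GBP genes (4), IRGs (5), ligands and receptors (2), signalling (6), inflammasome (3) and vacuole targeting (4). With trend and robust settings they were 2 for GBP probe sets, 1 for GBP genes and 0 for IRGs, although 503 genes were lower and 1184 higher in all, against 373 and 519 as reported. Over all genes the floor gave 7 and 24, above-median probe sets only 479 and 1043, and quantile normalization 403 and 356. The floor changed no GBP value, and what moved the counts was not tested. Array weights raised the ligand and receptor count to 4. Higher genes, 0 as reported, numbered 1 (Ifngr1) in that list after quantile normalization, with above-median probe sets only, with trend and robust settings and with array weights, and 1 in the signalling list with trend and robust settings.

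Leaving out 1 array in turn gave 0 to 7 GBP probe sets, 0 to 4 GBP genes, 0 to 5 IRGs, 0 to 2 ligands and receptors, 0 to 6 signalling genes, 0 to 4 inflammasome genes and 0 to 4 vacuole-targeting genes, and between 8 and 400 lower genes overall. Gbp2b read 0.13 without wild-type replicate 2 in place of -0.15, and the probe set shared by Gbp8 and Gbp4 0.03 in place of -0.04. The replicate numbers did not pair the arrays: deviations from the group means of same-numbered arrays correlated at -0.06, -0.04 and -0.13 across probe sets. With the replicate block, 0 GBP probe sets, GBP genes, IRGs, signalling, inflammasome or vacuole-targeting genes passed, 1 ligand or receptor did, and 23 genes were lower and 22 higher overall; the 7 GBP probe sets had limma adjusted p of 0.0538 to 0.0592. Among probe sets with names free of _s_at, _x_at and _a_at there were 3 lower GBP genes of the 4 still measured. The only probe set of Gbp3 has such a name and was left out there. Averaging the probe sets of a gene gave 4 lower GBP genes of 5. With 3 arrays per genotype and no background level, small falls of dim probe sets such as the one shared by Gbp8 and Gbp4 were not detectable.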
